A study of Homo sapiens with 18 samples.

Results

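The alpha-like globin genes are 5 genes of the alpha-globin cluster on human chromosome 16: HBZ (NM_005332), HBM (NM_001003938), HBA2 (NM_000517), HBA1 (NM_000558) and HBQ1 (NM_005331). They were taken by symbol from 24395 genes, each has 1 RefSeq accession in the count files, and no other gene of the RefSeq table of GRCh38.p14 overlaps any of them. The genes were followed in 18 RNA-seq libraries of K562, a human erythroleukaemia line that makes embryonic and fetal globins. In this study a catalytically inactive Cas9 (dCas9), with or without the KRAB repressor domain, was aimed with a guide RNA (gRNA) at HS2, an enhancer of the beta-globin cluster on another chromosome.

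The libraries formed 6 groups of 3. KRAB_no_gRNA carried dCas9-KRAB and no gRNA. KRAB_CR4 and KRAB_CR10 carried dCas9-KRAB with the HS2 gRNA named CR4 or CR10, and dCas9_CR4 and dCas9_CR10 carried dCas9 lacking KRAB with the same gRNAs. These 5 groups were transduced with lentivirus of different constructs. They shared polybrene at 4 µg/ml and selection with puromycin at 1 µg/ml from about 96 h, whereas no_lentivirus was not transduced. The titles number the libraries of a group 1 to 3; whether they came from separate cultures is not given for the untransduced group, so p-values measure the spread between these libraries. Totals ran from 22805964 to 34032962 counts, at 2 counts per sequenced fragment.

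Haemoglobin is a tetramer of 2 alpha-like and 2 beta-like chains, each holding a haem group. Zeta-globin (HBZ) is the alpha-like chain of the embryo and pairs with epsilon-globin (HBE1). Alpha-globin, made from the near-identical genes HBA1 and HBA2, replaces zeta and pairs with gamma-globin (HBG1, HBG2) in the fetus and with beta-globin (HBB) in the adult. HBM encodes mu-globin and HBQ1 theta-globin, which are transcribed in erythroid cells and are not known as regular haemoglobin chains. The alpha cluster is driven by its own upstream enhancers, which lie in introns of the neighbouring gene NPRL3, and not by HS2.

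The opening 75 coding bases of the GENCODE transcripts show how far reads can tell the genes apart. Capitals mark bases that are unlike HBA1 at the same position, counted from the start codon.
HBA1: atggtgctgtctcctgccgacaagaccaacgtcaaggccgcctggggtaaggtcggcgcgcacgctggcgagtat
HBA2: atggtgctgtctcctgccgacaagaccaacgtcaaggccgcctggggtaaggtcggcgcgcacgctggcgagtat
HBZ: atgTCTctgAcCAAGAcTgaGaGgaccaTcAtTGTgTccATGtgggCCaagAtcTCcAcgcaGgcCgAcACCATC
HBQ1: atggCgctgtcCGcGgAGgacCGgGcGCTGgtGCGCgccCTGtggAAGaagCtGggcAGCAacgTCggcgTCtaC
HBZ differed from HBA1 at 36 of these 75 bases and HBQ1 at 34, while HBA1 and HBA2 did not differ. Over the whole coding sequence of 429 bases HBA1 and HBA2 were identical, and their 3′ untranslated regions were 82.3% identical when aligned. Of all windows of 50 bases in the HBA1 transcript, 81.6% also occur in HBA2, so the split between the pair is uncertain and their sum is given beside them. Aligned to HBA1, the coding sequence was 74.6% identical for HBQ1, 70.6% for HBZ and 65.3% for HBM.

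HBA1, HBA2 and HBZ were the abundant alpha-like transcripts and HBM was at background. Levels are CPM, counts scaled to library size with TMM factors, and they are compared between genes only per kilobase of transcript. The shares and the tested ratio below use counts not scaled to length. HBA1 lay between 395 and 897 CPM per kb over the 18 libraries (median 699.8), HBA2 between 334 and 792 (median 597), HBZ between 114 and 469.7 (median 334) and HBQ1 between 10.8 and 23.8 (median 17.7). The order HBA1, HBA2, HBZ, HBQ1, HBM held in 18 of 18 libraries. The ratio of HBA1 to HBA2 had a median of 1.16 (range 1.11 to 1.20), that of HBA2 to HBZ 1.86 (1.51 to 2.94) and that of HBZ to HBQ1 19.8 (9.26 to 36.9), so the neighbours HBA1 and HBA2 were close, and their order carries the uncertainty of the shared reads. HBM had 0 counts in 15 libraries and 2 counts, the mates of 1 fragment, in each of 3 (KRAB_no_gRNA library 2, dCas9_CR4 library 2 and dCas9_CR10 library 1). In the 15 libraries at 0, the limit that a count of 0 allows (3 fragments, 6 counts) was 0.182 to 0.265 CPM per library, for counting error only. HBM was removed by the low-count filter, and the other 4 members were tested.

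**Figure D1:**
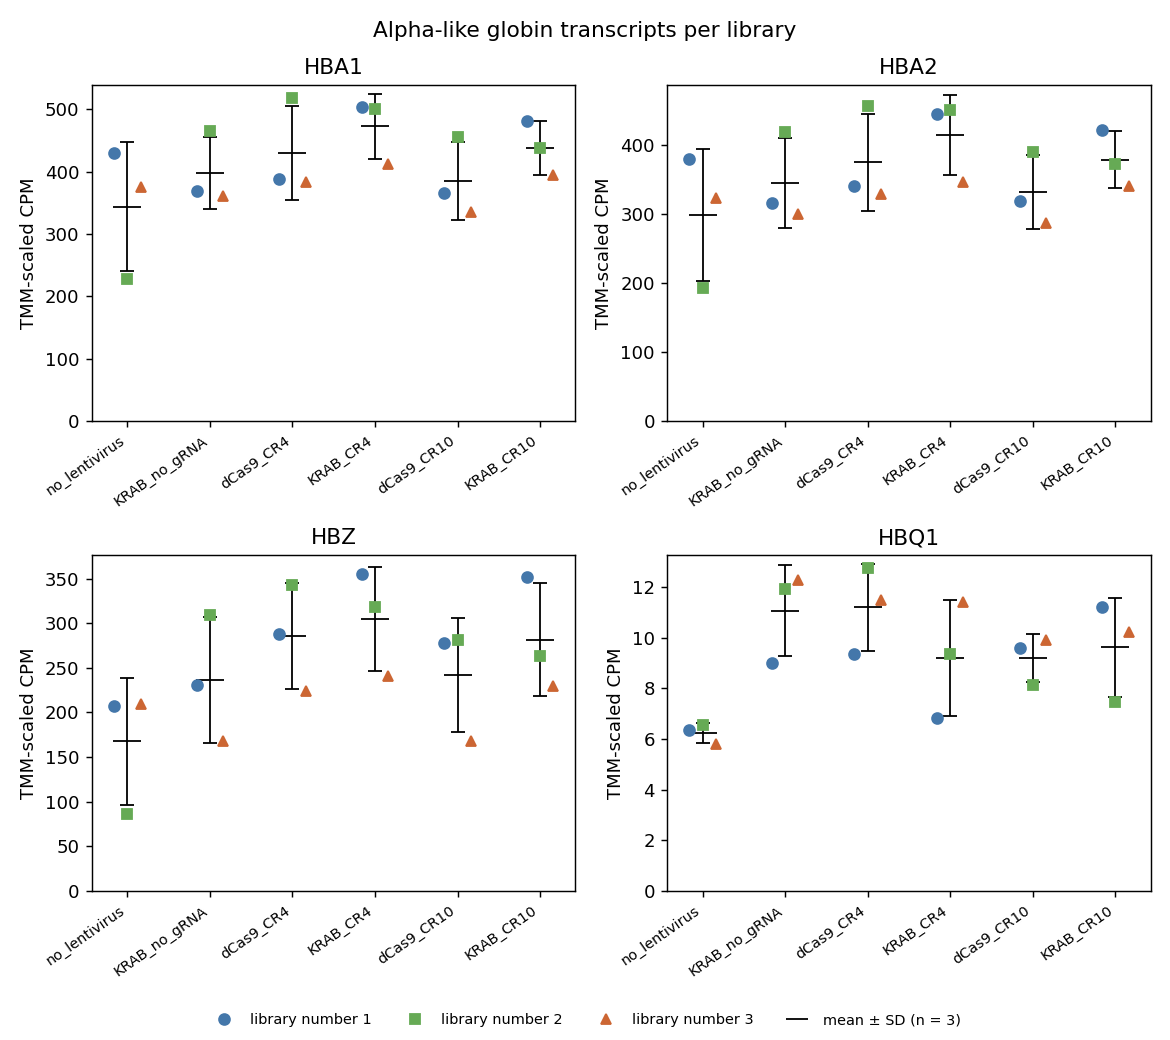
TMM-scaled CPM (y axis, from 0) of HBA1, HBA2, HBZ and HBQ1 in the 6 groups (x axis); symbols give the library number, bars the mean ± SD of 3 libraries. Libraries numbered 3 are the lowest of their lentiviral group for HBA1, HBA2 and HBZ, and the untransduced libraries, between 5.81 and 6.57 CPM, are below every lentiviral library for HBQ1.

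With dCas9-KRAB at HS2, HBZ, HBA1, HBA2 and HBQ1 overlapped their controls in every comparison. HBZ read 355, 318 and 241 CPM in KRAB_CR4 libraries 1, 2 and 3, and 352, 263 and 229 CPM in KRAB_CR10. It read 231, 309 and 168 CPM in KRAB_no_gRNA, 288, 343 and 224 CPM in dCas9_CR4, and 278, 281 and 168 CPM in dCas9_CR10. The highest HBZ levels were thus in library 1 of both KRAB groups with a gRNA and in dCas9_CR4 library 2, and each control group reached into the range of the targeted groups.

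HBA1 read 504, 501 and 413 CPM in KRAB_CR4, 481, 438 and 395 CPM in KRAB_CR10, and 368, 465 and 361 CPM in KRAB_no_gRNA. In the dCas9 groups HBA1 read 389, 518 and 384 CPM with CR4 and 365, 455 and 335 CPM with CR10. The highest HBA1 value of the 18 libraries was in a dCas9 control, and the groups overlapped. HBA2 followed the same order of libraries within most groups, with 445, 451 and 347 CPM in KRAB_CR4, 422, 373 and 340.3 CPM in KRAB_CR10 and 315, 419 and 299 CPM in KRAB_no_gRNA. HBA2 in the dCas9 groups was 340.3, 456 and 328 CPM with CR4 and 319, 390.4 and 286 CPM with CR10.

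HBQ1, the least abundant tested member, read 6.83, 9.38 and 11.4 CPM in KRAB_CR4 and 11.2, 7.45 and 10.2 CPM in KRAB_CR10. HBQ1 read 9.0, 11.9 and 12.3 CPM in KRAB_no_gRNA, 9.37, 12.8 and 11.5 CPM in dCas9_CR4, and 9.59, 8.12 and 9.90 CPM in dCas9_CR10. These groups overlapped as well, over a range from 158 to 366 counts per library in the whole series.

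The first comparison asks whether bringing dCas9-KRAB to HS2 with CR4 also moved the alpha-like genes. Between KRAB_CR4 and KRAB_no_gRNA the HBZ mean was 305 ± 58.1 against 236 ± 70.3 CPM (SD, n = 3 and 3), a log2 fold change of 0.37 ± 0.31 (SE) with a 95% interval from -0.30 to 1.03. HBA1 and HBA2 had log2 fold changes of 0.25 (-0.18 to 0.68) and 0.27 (-0.20 to 0.73), and their sum 0.26. HBQ1 had the opposite sign, -0.27 (-0.72 to 0.19). In the edgeR quasi-likelihood test the Benjamini-Hochberg adjusted p was 0.999 for each of the 4, against 0.0204% of all 14713 tested genes called at 0.05. The 3 genes called were HBE1, HBG2 and HBG1, which fell 7.43-fold, 3.84-fold and 3.26-fold.

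With CR10 the values were nearer to 0. KRAB_CR10 against KRAB_no_gRNA gave log2 fold changes of 0.25 (-0.41 to 0.92) for HBZ, 0.14 (-0.29 to 0.57) for HBA1, 0.13 (-0.33 to 0.60) for HBA2 and -0.20 (-0.65 to 0.25) for HBQ1. None of the 4 passed in edgeR, where 0.0204% of genes did, again HBE1, HBG1 and HBG2.

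Against the dCas9 control with the same gRNA, the construct without KRAB, HBZ differed by 0.09 on the log2 scale with CR4 (-0.57 to 0.76) and by 0.22 with CR10 (-0.45 to 0.88). HBA1 differed by 0.14 (-0.29 to 0.57) and 0.18 (-0.25 to 0.61), and HBA2 by 0.14 (-0.32 to 0.61) and 0.19 (-0.28 to 0.66). HBQ1 differed by -0.28 (-0.73 to 0.17) with CR4 and by 0.06 (-0.39 to 0.51) with CR10. No alpha-like gene passed in edgeR in KRAB_CR4 against dCas9_CR4 (0.0204% of genes called) or in KRAB_CR10 against dCas9_CR10 (0.0204%).

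Averaged over both gRNAs, 6 KRAB against 6 dCas9 libraries, the log2 differences were 0.16 for HBZ (-0.31 to 0.63), 0.16 for HBA1 (-0.14 to 0.46), 0.17 for HBA2 (-0.16 to 0.50) and -0.11 for HBQ1 (-0.43 to 0.21). Of all genes 0.0272% were called there by edgeR and 0 of the 4 alpha-like genes. As folds, the interval ran from 0.905 to 1.38 for HBA1 and from 0.804 to 1.54 for HBZ.

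The KRAB effect itself was compared between the gRNAs, a comparison added after the data were seen. The effect with CR4 minus that with CR10 was -0.12 for HBZ on the log2 scale (-1.06 to 0.82), -0.05 for HBA1 (-0.66 to 0.56), -0.04 for HBA2 (-0.70 to 0.61) and -0.35 for HBQ1 (-0.98 to 0.29). The edgeR adjusted p was 1.00 for each.

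The dCas9 groups without KRAB were also set against KRAB_no_gRNA. For dCas9_CR4 the log2 differences were 0.27 for HBZ, 0.11 for HBA1, 0.12 for HBA2 and 0.02 for HBQ1, and edgeR called 0% of genes (66 genes had an unadjusted p under 0.05). For dCas9_CR10 they were 0.04 for HBZ, -0.05 for HBA1, -0.05 for HBA2 and -0.27 for HBQ1, with 0% of genes called (175 at an unadjusted p under 0.05). KRAB_CR4 against KRAB_CR10 gave 0.11 for HBZ, 0.11 for HBA1, 0.13 for HBA2 and -0.06 for HBQ1, again with 0% called (132 at an unadjusted p under 0.05). DESeq2 also called 0 genes in each of these 3 comparisons.

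Over these 8 comparisons of lentiviral groups the 32 log2 fold changes of the 4 genes ran from -0.28 to 0.37 and their intervals from -0.73 to 1.03, that is from 0.601-fold to 2.05-fold. None of the 32 had an unadjusted edgeR p under 0.05 (the smallest was 0.19), and DESeq2 called none either. Lentiviral libraries with the same number shared part of their spread, and a fit on the 15 lentiviral libraries with the number as a block narrowed the intervals. In that blocked fit HBZ in KRAB_CR4 against KRAB_no_gRNA was 0.39 (0.12 to 0.67) with an edgeR adjusted p of 0.361, HBA1 was 0.26 (0.04 to 0.48) and HBA2 0.28 (0.05 to 0.51). There 3 of the 4 genes had an unadjusted p under 0.05. The same count was 3 of 4 in KRAB_CR10 against dCas9_CR10 and in the mean over both gRNAs (HBA1 0.18, 0.02 to 0.33). It was 0 of 4 in KRAB_CR4 against dCas9_CR4, and 1 of 4, HBZ, both in KRAB_CR10 and in dCas9_CR4 against KRAB_no_gRNA. In KRAB_CR10 against dCas9_CR10 the intervals still included 0 for HBA1 (-0.02 to 0.42), HBA2 (-0.02 to 0.44) and HBZ (-0.02 to 0.52). So did that of HBZ in the mean (-0.02 to 0.37). Intervals were built on the residual degrees of freedom alone and p-values were not, so they can differ. In dCas9_CR4, which has no KRAB, HBZ was 0.29 (0.02 to 0.56). Of the 32 blocked values 11 had an unadjusted p under 0.05, and none passed after adjustment over all genes (smallest edgeR adjusted p 0.361). Of all 14599 genes, 1265 in KRAB_CR4 and 1505 in KRAB_CR10 against KRAB_no_gRNA had an unadjusted edgeR p under 0.05 in that fit. The number was 325 in KRAB_CR10 against dCas9_CR10, 762 in the mean over both gRNAs and 267 in dCas9_CR4 against KRAB_no_gRNA. The 32 values are not independent, as HBA1 and HBA2 share sequence and the comparisons share libraries. Within numbers 1, 2 and 3 the log2 difference of HBZ between KRAB_CR4 and KRAB_no_gRNA was 0.62, 0.04 and 0.52, so library number 2 showed little of it.

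**Figure D2:**
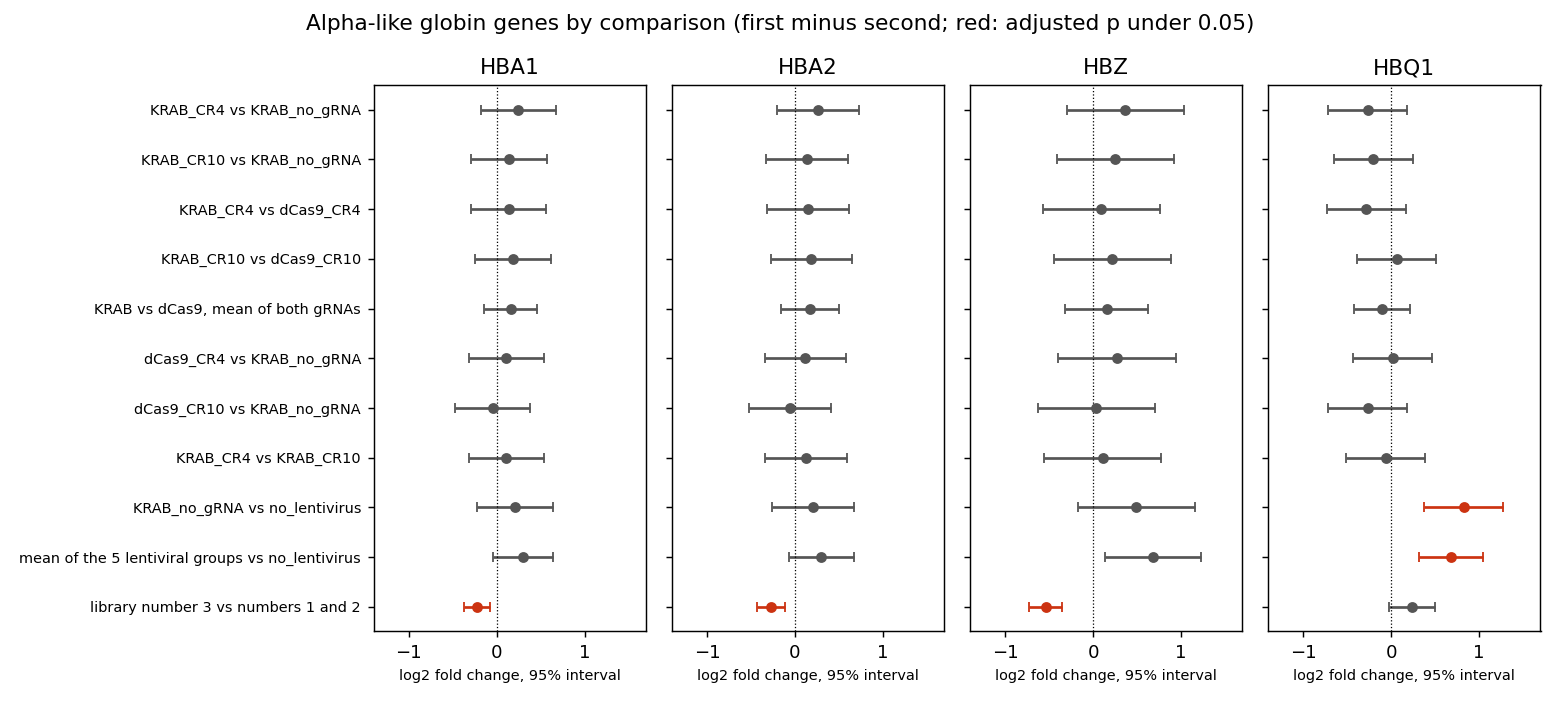
Log2 fold change (x axis, first group minus second) with its 95% interval for HBA1, HBA2, HBZ and HBQ1 in each comparison (y axis), from edgeR; red marks an adjusted p under 0.05. The 8 upper comparisons, between lentiviral groups, all have intervals that include 0.

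The balance with the beta-like chains differed. Per kilobase the sum of the alpha-like genes was 2128, 2091 and 1658 CPM in KRAB_CR4 and the sum of HBE1, HBG1, HBG2, HBD and HBB 822, 898 and 756. In KRAB_CR10 the alpha-like sum was 2054, 1768 and 1598 CPM per kb and the beta-like sum 1321, 1200.4 and 1006. Alpha-like transcripts outnumbered beta-like ones in all 6 of these libraries and in none of the other 12.

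The ratio of alpha-like to beta-like levels per kilobase was 2.59, 2.33 and 2.19 in KRAB_CR4 and 1.55, 1.47 and 1.59 in KRAB_CR10. It was 0.643, 0.667 and 0.585 in dCas9_CR4, 0.610, 0.569 and 0.492 in dCas9_CR10, 0.465, 0.568 and 0.422 in KRAB_no_gRNA, and 0.428, 0.315 and 0.435 in no_lentivirus. The groups with dCas9-KRAB at HS2 did not overlap any other. On counts, the log2 ratio was 0.78 ± 0.35 in the 6 KRAB libraries with a gRNA against -0.89 ± 0.16 (SD, n = 6) in the 6 dCas9 libraries, a 3.17-fold difference (two-sided exact permutation p = 0.00216, the smallest that 924 arrangements allow; Benjamini-Hochberg adjusted over 3 such tests, 0.00649). With the 3 against 3 libraries of 1 gRNA the test cannot go below the exact permutation p of 0.10 that both gave. Among the beta-like genes HBE1 fell 5.11-fold, HBG2 2.72-fold and HBG1 2.40-fold in the mean over both gRNAs (edgeR adjusted p = 1.59e-10, 2.14e-06 and 1.26e-05). The ratio divides by these genes, called lower in the same libraries, while the alpha-like genes were not called. The permutation p is therefore no separate evidence, and none about the alpha-like genes.

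The ratio was also taken for the pairs of chains that assemble together. HBZ, the embryonic alpha-like chain, per kilobase was 0.431, 0.538 and 0.294 times HBE1 in KRAB_no_gRNA, and 5.18, 3.81 and 3.24 times HBE1 in KRAB_CR4. In KRAB_CR10 the ratio of HBZ to HBE1 was 3.02, 2.48 and 2.55, against 0.682, 0.539 and 0.356 in dCas9_CR10. For the fetal pair, HBA1 and HBA2 over HBG1 and HBG2, the ratio was 2.27, 2.12 and 2.01 in KRAB_CR4, 1.35, 1.34 and 1.44 in KRAB_CR10, and 0.471, 0.573 and 0.453 in KRAB_no_gRNA. Whether the 2 pairs differ in their shift was not tested.

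**Figure D3:**
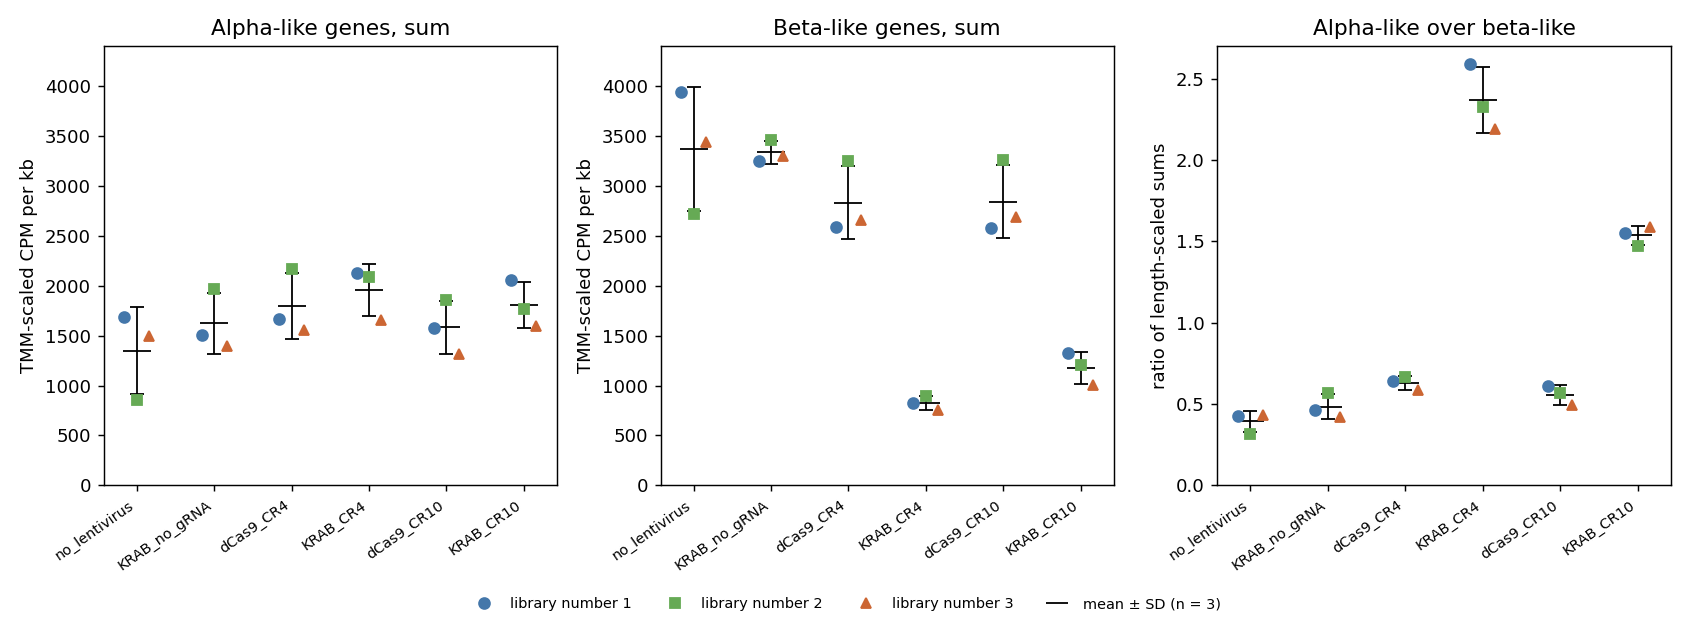
Summed TMM-scaled CPM per kb of the alpha-like genes (left) and of HBE1, HBG1, HBG2, HBD and HBB (middle), and the ratio of the sums (right), in 6 groups with symbols for library number and mean ± SD bars. The alpha-like panel overlaps between groups, and the ratio is above 1 only in KRAB_CR4 and KRAB_CR10, from 1.47 to 2.59.

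The composition of the alpha-like counts did not shift between the KRAB and dCas9 means beyond the spread between libraries, which includes that between library numbers. HBZ made up 27.1, 24.9 and 23.8% of alpha-like counts in KRAB_CR4 and 27.8, 24.3 and 23.5% in KRAB_CR10, against 28.1, 25.8 and 23.7% in dCas9_CR4 and 28.6, 24.8 and 21.0% in dCas9_CR10. Scaled to transcript length, the mean HBZ share was 20.5% in KRAB_CR4, 20.5% in KRAB_CR10, 21.0% in dCas9_CR4 and 20.1% in dCas9_CR10. For the shares of counts, the KRAB and dCas9 means were 25.2 ± 1.79% and 25.3 ± 2.83% (SD, n = 6 and 6, exact permutation p = 0.959). This test does not pair libraries by number, and the HBZ share was lowest in number 3 in each of these groups. Within numbers 1, 2 and 3, KRAB minus dCas9 was -1.02, -0.93 and 0.13 percentage points with CR4. With CR10 it was -0.75, -0.41 and 2.50 points, so the sign differed between numbers. HBA2 made up 46.5 ± 0.631% of the HBA1 and HBA2 counts with KRAB and 46.4 ± 0.341% with dCas9 (exact permutation p = 0.742, adjusted over the 3 tests 0.959). In all 18 libraries the HBA2 share stayed between 45.4 and 47.4%.

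**Figure D4:**
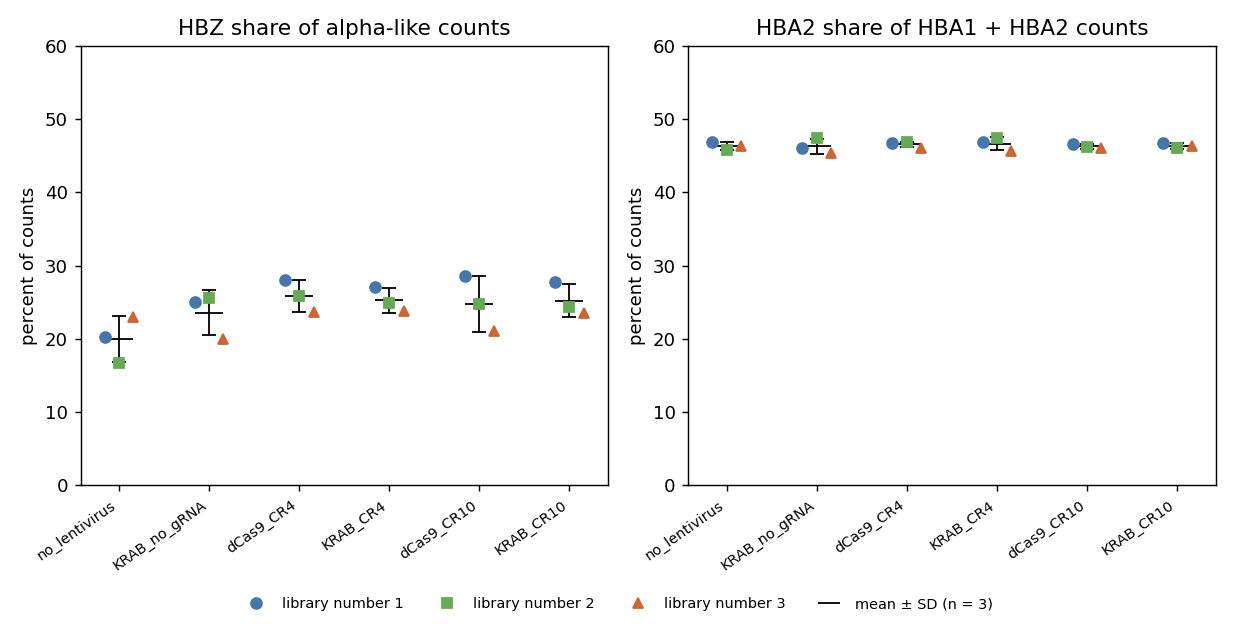
Share of alpha-like counts from HBZ (left) and share of HBA1 and HBA2 counts from HBA2 (right), in percent on axes from 0, by group with symbols for library number and mean ± SD bars. The HBZ share ranges from 16.7 to 28.6% and is lowest for number 3 within each lentiviral group, while the HBA2 share lies between 45.4 and 47.4% throughout.

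Transduction was followed by comparing KRAB_no_gRNA with no_lentivirus. The labels give polybrene and puromycin only for lentiviral groups, so virus, dCas9-KRAB, polybrene and puromycin cannot be told apart in this comparison. HBQ1 was the only alpha-like gene called: it read 6.37, 6.57 and 5.81 CPM in the untransduced libraries and 9.0, 11.9 and 12.3 CPM in KRAB_no_gRNA, with no overlap. Its means of 6.25 ± 0.394 and 11.1 ± 1.80 CPM (SD, n = 3 and 3) differed 1.77-fold, a log2 fold change of 0.82 ± 0.21 (SE; 0.37 to 1.28) with an edgeR adjusted p of 0.0309. Of all genes 6.63% were called in this comparison and 26.5% did not overlap between the groups. The call of HBQ1 was fragile: fitting only the 2 groups compared gave an edgeR adjusted p of 0.125, and leaving out a library kept the call only without no_lentivirus library 1, with adjusted p from 0.0315 to 0.113 and log2 fold changes from 0.73 to 0.95. Each of the other 5 libraries of both groups, left out alone, ended it in edgeR. DESeq2 on all 18 libraries also called HBQ1 (adjusted p = 0.00527).

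The other members were not called against no_lentivirus. HBZ read 207, 85.8 and 209.7 CPM in the untransduced libraries, HBA1 429, 228 and 375 and HBA2 379, 193 and 323. Library 2 of no_lentivirus held the lowest value of the 18 for each of the 3 genes, and the groups overlapped. The log2 fold changes were 0.49 for HBZ (-0.17 to 1.16), 0.21 for HBA1 (-0.22 to 0.64) and 0.21 for HBA2 (-0.26 to 0.68), with edgeR adjusted p of 0.323, 0.528 and 0.566. Without no_lentivirus library 2 the HBZ value was 0.17.

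A comparison of the mean of the 5 lentiviral groups with no_lentivirus was added after the data were seen. Over the 15 lentiviral libraries HBQ1 had a lowest value of 6.83 and a highest of 12.8 CPM, all above the 3 untransduced libraries. HBQ1 was higher 1.60-fold (log2 0.68 ± 0.17, 0.31 to 1.05; edgeR adjusted p = 0.0119), 10.1 ± 1.78 against 6.25 ± 0.394 CPM (SD, n = 15 and 3). Of all genes 18.7% were called and 7.56% did not overlap. Leaving out no_lentivirus library 2 or 3 ended the call, with edgeR adjusted p of 0.0732 and 0.0698 and values of 0.71 and 0.63. With DESeq2 on all 18 libraries HBQ1 was called (adjusted p = 0.00129). HBZ had a log2 fold change of 0.68 (0.14 to 1.22) that did not pass (edgeR adjusted p = 0.0658); it was 0.36 without no_lentivirus library 2. HBZ passed with DESeq2 (adjusted p = 0.0267) and, in edgeR, without KRAB_no_gRNA library 3 (0.0457), dCas9_CR10 library 3 (0.0374) or no_lentivirus library 1 (0.048), with log2 values of 0.72, 0.72 and 0.85. HBZ also passed in edgeR with the replicate block on all 18 libraries (0.63, adjusted p = 0.0421) and without the lentiviral libraries numbered 3 (0.83, adjusted p = 0.0131). That block pairs untransduced with lentiviral libraries by number, although their deviations from group means correlated above 0.1 in only 5 of 15 such pairs (-0.49 to 0.40). Because gRNA and KRAB at HS2 differ among the 15, this mean is not a comparison of a single treatment.

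The lentiviral libraries numbered 3 were lower for HBZ within their groups, although their range overlapped that of number 1. HBZ was lowest in number 3 in 5 of 5 groups, from 168 to 241 CPM (median 224), against 231 to 355 in number 1 (median 288) and 263 to 343 in number 2 (median 309). With the group means held, HBZ was 1.45-fold lower in number 3 than in numbers 1 and 2, a log2 difference of -0.54 ± 0.08 (SE; -0.73 to -0.35; edgeR adjusted p = 1.23e-05). HBA1 was lower too, -0.22 (-0.37 to -0.07; edgeR adjusted p = 0.0062), as was HBA2, -0.27 (-0.43 to -0.11; 0.00208), and each was lowest in number 3 in 5 of 5 groups. HBQ1 had the other sign, 0.24 (-0.03 to 0.50), and did not pass (edgeR adjusted p = 0.0881). HBQ1 passed without KRAB_CR10 library 1 (0.0231). So 3 of 4 members were called where 53.8% of all 14599 tested genes were, and the count is not read as particular to them. All 4 had overlapping ranges, whereas 20.8% of all genes did not overlap. The share of all genes that were lowest in number 3 in 5 of 5 groups is not given here. Against number 1 alone HBA1 was -0.12 and HBA2 -0.17, with edgeR adjusted p of 0.175 and 0.0797, and HBZ remained called.

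The share of HBZ in alpha-like counts was 20.03 to 23.8% in the 5 libraries numbered 3, 25 to 28.6% in number 1 and 24.3 to 25.8% in number 2, without overlap of number 3 with the others. Of the 7 erythroid line markers 4 were called lower in number 3 and 0 higher (edgeR), 57.1% in either direction against 53.8% of all genes. Of all 14599 genes 3782 were called lower and 4075 higher. Their sum was 1318 to 1527 CPM in number 3 and 1761 to 2016 CPM in numbers 1 and 2, and most of that gap was TFRC, the transferrin receptor, at 825 ± 89.0 against 1244 ± 103 CPM (SD, n = 5 and 10). All 3 tested of the 7 myeloid markers were called higher, LYZ, CD68 and ITGAM, and the 7 summed to 88.5 to 103 CPM against 40.1 to 62.1 CPM, with CD14, CSF1R, MPO and ELANE under 1 CPM in every library. Of 5 tested megakaryocyte markers 2 were called higher; the 8 summed to 12.53 to 16.9 against 5.67 to 9.37 CPM with GP9 at 0, a gap carried by ITGA2B, the platelet integrin alpha chain, at 10.1 ± 1.82 against 3.54 ± 0.797 CPM. Both tested lymphoid markers (2 of 7) were called higher, and the 7 summed to 7.99 to 9.68 against 4.84 to 8.57 CPM, with MS4A1 at 0. Of 4 tested fibroblast and epithelial markers 1 was called in number 3, COL1A1, a collagen chain, at 1.82-fold higher (edgeR adjusted p = 0.00185). In the untransduced libraries the myeloid markers summed to 86.9 to 114 CPM and the megakaryocyte markers to 19.8 to 31.1 CPM. Their lymphoid markers summed to 8.43 to 12.5 CPM and their erythroid line markers to 1128 to 1829 CPM. The part of these markers in the HBZ difference was not tested, and in bulk RNA fewer cells of a type and less RNA per cell cannot be told apart.

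The genes around the cluster, chosen by position, were taken as the first group of related genes. Of 15 tested neighbours on chromosome 16, 0 were called in any of the 8 comparisons of lentiviral groups. In those comparisons edgeR called at most 0.0272% of all 14713 genes, so that 0 is not read as particular to the neighbours. CAPN15 was higher in KRAB_no_gRNA than in no_lentivirus, 2.07-fold (edgeR adjusted p = 0.0185). It was 1 of 15, where 6.63% of all genes were called, so the count is not read as particular to the neighbours. In number 3 against 1 and 2, 5 of 15 were higher and 5 lower, where 53.8% of all genes were called; NME4, a mitochondrial nucleoside diphosphate kinase, was 1.34-fold higher and POLR3K, an RNA polymerase III subunit, 1.23-fold lower.

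The regulators of alpha-globin transcription, among them GATA1, TAL1, KLF1 and NFE2, were 21 tested genes of 22. None was called in the 8 comparisons of lentiviral groups in edgeR, where at most 0.0272% of all genes were. Against no_lentivirus, BACH1, a haem-sensing repressor, was 1.54-fold lower and GATA1, the master erythroid factor, 1.37-fold lower (2 of 21 lower), while 1 was higher, ZBTB7A, a repressor of fetal globin, 1.85-fold in KRAB_no_gRNA (edgeR adjusted p = 0.0248, 0.0287 and 0.0202). Of all genes 6.63% were called in KRAB_no_gRNA against no_lentivirus. In number 3 14 of 21 were lower and 0 higher, with a median log2 difference of -0.26 against 0.03 for all genes. There 53.8% of all 14599 genes were called in either direction, 3782 lower and 4075 higher. ZFPM1, the GATA1 partner FOG1, was 1.66-fold lower, DAXX, a histone H3.3 chaperone, 1.35-fold, TAL1, an erythroid helix-loop-helix factor, 1.33-fold, and KLF1, a globin gene activator, 1.31-fold.

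Haem supply and the handling of unpaired chains made up the last groups. All 14 haem synthesis and iron genes were tested, and 0 were called between lentiviral groups, where at most 0.0272% of all genes were. Against no_lentivirus 5 of 14 were lower in KRAB_no_gRNA and 0 higher, with a median of -0.31 on the log2 scale against 0.01 for all genes. Of all 14713 genes 553 were lower and 423 higher there, 6.63% in either direction. ALAS2, the erythroid enzyme that starts haem synthesis, was 2.46-fold lower, 24.5 ± 2.61 against 60.3 ± 0.615 CPM (SD, n = 3 and 3; edgeR adjusted p = 0.00143). Of 9 tested chaperone, haem-sensing and haem breakdown genes 1 was called there, EIF2AK1, the haem-regulated kinase that slows translation, at 1.34-fold lower. Every call of a listed gene in KRAB_no_gRNA against no_lentivirus rests on the fit of all 18 libraries: with only the 2 groups compared edgeR called 0 genes (3056 at an unadjusted p under 0.05), and leaving out 1 library gave 27 to 2447 calls in place of 976. In number 3, TFRC was 1.49-fold lower, and of the 14 haem genes 3 were higher and 6 lower, against 53.8% of all genes called.

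Erythroid maturation genes were tested in all 17 cases, and 0 were called between lentiviral groups, where at most 0.0272% of all genes were. Against no_lentivirus 5 of 17 were lower in KRAB_no_gRNA and 0 higher. Of all 14713 genes 553 were lower and 423 higher there, 6.63% in either direction. Among the 5 were XK, a blood group protein, 1.97-fold lower, and GYPC, glycophorin C, 1.53-fold lower. In number 3, 8 of 17 were lower and 1 higher, 52.9% in either direction against 53.8% of all genes. Of all 14599 genes 3782 were lower and 4075 higher. SLC4A1, the band 3 anion exchanger, was 1.79-fold lower and GYPC 1.14-fold higher.

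The genes whose profile over the 18 libraries was nearest to a member's were found by the root mean square difference of centred log2(CPM + 1) over 9301 genes of at least 10 CPM. For HBZ, whose own root mean square deviation was 0.48, they were RPS6KA4 (0.20), CCDC86 (0.21) and SRSF2 (0.21). For the sum of HBA1 and HBA2, with an own deviation of 0.28, they were PRELID1 (0.11), CCNQ (0.12) and SRM (0.13). These are descriptions over 18 libraries that share library numbers, and over the 15 lentiviral libraries the nearest were other genes: DDX11L2, KLF1 and NETO2 for HBZ, and MPDU1, PPP3CC and TUBA1B for the HBA sum.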

How the data were processed

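Polyadenylated RNA of 18 K562 libraries was sequenced after fragmentation with a Nextera transposase, per the labels' protocols; this preparation does not mark the strand. The authors deposited raw counts per RefSeq accession, 40709 in each file. Build hg19 and the tools Bowtie2, SAMtools and Picard, with DESeq under R 3.1.2, are listed in the submitters' processing notes; which program counted the reads, and what it did with those that align in more than 1 place, is not given in the sources used here. All deposited counts were even (0 odd values), so 2 counts were taken as 1 fragment. Accessions were summed to genes by symbol (39324 matched RefSeq, 517 GENCODE, 868 neither).

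Counts were filtered with filterByExpr (14713 genes, 99.97% of counts), scaled by TMM and tested with edgeR 4.0.16 in R 4.3.3, with 6 group means over all 18 libraries, the quasi-likelihood test and Benjamini-Hochberg adjustment at 0.05. DESeq2 1.42.0 was an alternative. The number comparison used the 15 lentiviral libraries with group and number as terms. Ratios were tested by exact permutation over libraries. Transcript lengths for levels per kb came from GENCODE. Scripts were tested on simulated counts.

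Same-numbered lentiviral libraries had correlated deviations from group means in 30 of 30 pairs (0.17 to 0.87, over 12604 genes), so the numbers were read as pairing these libraries. Of 60 different-numbered pairs 17 were also above 0.1. Between untransduced and lentiviral libraries of the same number 5 of 15 pairs were above 0.1 (-0.49 to 0.40), which gives no ground for pairing those by number. The members, the gene lists (neighbours, regulators, chaperone and haem genes, maturation genes, cell type markers) and the tests were chosen with earlier results of these data known. Named genes were the members, up to 4 passing genes per list and direction by fold, and the 3 nearest profiles; KLF1 under the regulators was named as a marker gene.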

Additional observations from a re-analysis of the deposited data

How the results depend on the processing

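No setting tried called an alpha-like gene between lentiviral groups, and of 821 recomputed values of the members 779 kept their direction and side of the threshold, 24 small values reversed sign, 11 lost a call and 7 gained one. The log2 ratio of alpha-like to beta-like counts, 1.67, was 1.88 with CR4 and 1.45 with CR10 alone, where 3 against 3 libraries cannot reach 0.05; without 1 library it was 1.58 to 1.74. The HBZ share difference was 0.447 percentage points with CR10 alone, and -0.941 to 0.568 without 1 library, and the HBA2 share difference -0.0768 to 0.261. With halved counts HBQ1 in dCas9_CR4 against KRAB_no_gRNA was -0.0017.

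The replicate block on the 15 lentiviral libraries changed no call of a member between lentiviral groups. All genes called, 3 in each comparison with KRAB and 4 in the mean over gRNAs, were then 6 in KRAB_CR4 and 7 in KRAB_CR10 against KRAB_no_gRNA, 8 and 7 against dCas9, and 14 in the mean. The same 15 libraries without the block gave 4, 4, 4, 5 and 5, and the block on all 18 gave 3, 3, 3, 3 and 5. Numbers 1 and 2 alone gave 5 in KRAB_CR4 against KRAB_no_gRNA, 6 against dCas9_CR4 and 7 in the mean, and DESeq2 gave 5, 5 and 7. In KRAB_CR10 against dCas9_CR10 only the groups compared gave 1 and leaving out 1 library 1 to 3 (1 without dCas9_CR10 replicate 2, KRAB_CR10 replicate 2 or KRAB_CR10 replicate 3).

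In KRAB_no_gRNA against no_lentivirus 0 alpha-like genes were called with only the groups compared and without the lentiviral libraries numbered 3 (chosen after seeing the data), and 0 to 1 without 1 library. All genes called were then 0 (3056 at an unadjusted p under 0.05), 1617 and 27 to 2447, and 2621 with the replicate block on all 18 libraries and 1958 with DESeq2, in place of 976. The mean of the 5 lentiviral groups against no_lentivirus called 2 alpha-like genes without number 3, with the block on all 18 and with DESeq2, and 0 to 2 without 1 library; all genes called were 4439 without number 3, 4196 with the block on all 18 and 346 to 3629 without 1 library, in place of 2755. The block on all 18 pairs untransduced with lentiviral libraries by number, which the correlations of those pairs (-0.49 to 0.40) do not bear out. Number 3 against number 1 alone called 1 member in place of 3. The cause of these changes was not tested, beyond the smaller number of libraries in a reduced fit.

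Values near 0 changed sign when 1 library was left out: HBZ from -0.030 to 0.25 in KRAB_CR4 against dCas9_CR4, HBQ1 from -0.058 to 0.23 in KRAB_CR10 against dCas9_CR10, HBA1 from -0.034 to 0.25, HBA2 from -0.035 to 0.29 and HBQ1 from -0.11 to 0.13 in dCas9_CR4 against KRAB_no_gRNA. In dCas9_CR10 against KRAB_no_gRNA HBZ ran from -0.14 to 0.29, HBA1 from -0.18 to 0.090 and HBA2 from -0.18 to 0.12, in KRAB_CR4 against KRAB_CR10 HBZ from -0.011 to 0.30 and HBQ1 from -0.26 to 0.11, and in KRAB_no_gRNA against no_lentivirus HBA1 from -0.023 to 0.38 and HBA2 from -0.034 to 0.40. Depth limits HBM, at no more than 2 counts in any library.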
